A study of Danio rerio with 18 samples.

Results

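Uninjured zebrafish eyes whose contralateral optic nerve had been cut were compared between 24 hours post injury (hpi) and the 2 earlier collections, 6 and 12 hpi, treated as one group. The libraries were chosen by their titles alone, as the control libraries of the series, which are 9 of its 18 libraries, with 3 at 24 hpi and 6 at 6 and 12 hpi. All 9 came from adult isl2b:GFP fish aged 3 to 5 months, kept at 14 h of light and 10 h of dark, in which green fluorescent protein is driven by the promoter of isl2b, a transcription factor gene of retinal ganglion cells, the neurons whose axons form the optic nerve. Each library was made from polyadenylated RNA of 1000 sorted GFP-positive cells, amplified as cDNA. No control eye was cut, but by the design every one came from a fish that had undergone surgery on the other eye, and no library of an unoperated fish was part of the comparison. The labels give neither the clock time of surgery nor that of collection, so the hours after injury and the hour of the day cannot be told apart. They also do not say whether replicates were separate fish or pools of fish, so the p-values measure the spread between these libraries.

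Many retinal transcripts follow the time of day. A feedback loop in which Clock and Bmal proteins switch on period and cryptochrome genes, whose products then repress them, runs in most zebrafish cells, and zebrafish cells respond to light directly: light induces per2 and cry1a through enhancers that hold D-box elements, and induces DNA repair genes as well. Hypoxia-inducible factors form another switch, in which prolyl hydroxylases mark the alpha subunits for destruction while oxygen is plentiful, and in the vertebrate retina the oxygen use of photoreceptors is higher in the dark than in the light. Cortisol acts through the glucocorticoid receptor on another set of targets, and its level follows the day as well as stress.

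The 3 libraries of 24 hpi held 15490375, 24963959 and 24918919 counts, and the 6 others held between 16979745 and 22872011. Levels are given as CPM, a gene's counts scaled to library size. The driver gene isl2b had 303, 293 and 233 CPM at 24 hpi, against 130.5, 259.7 and 219 at 6 hpi and 251, 34.8 and 207 at 12 hpi. The groups overlapped for isl2b (edgeR adjusted p = 0.6). The 26 ganglion cell genes in the table, of which slc17a6a was at 0 in all 9 libraries, took 0.244% to 0.307% of counts at 24 hpi and 0.129% to 0.396% at 6 and 12 hpi. The 39 rod and cone genes took far more, 24.0%, 24.1% and 24.0% at 24 hpi, against 16.5%, 14.3% and 22.9% at 6 hpi and 18.7%, 21.3% and 22.1% at 12 hpi. The libraries labelled as ganglion cells thus held many photoreceptor transcripts, and the rod and cone share was higher in every 24 hpi library than in any of the 6 others. A large part of that share came from the rhodopsin gene rho alone. In such bulk samples fewer cells of a type and less RNA per cell cannot be told apart. Endothelial genes, with egfl7, erg and tie1 at 0 in all 9 libraries, took 0.00248% to 0.00302% at 24 hpi and 0.0035% to 0.00735% at 6 and 12 hpi, again without overlap. Mitochondrial genes took 1.32% to 1.54% at 24 hpi and 1.48% to 2.22% at 6 and 12 hpi. The bipolar cell list took 0.885% to 0.961% of counts at 24 hpi and 0.648% to 1.09% at 6 and 12 hpi, and it overlapped between the groups, as did the amacrine, horizontal, Müller glia, macrophage, erythrocyte, pigment epithelium and lens lists. One library of 6 hpi, replicate 2, stood apart in pigment epithelium genes, with 0.0582% of counts.

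**Figure D1:**
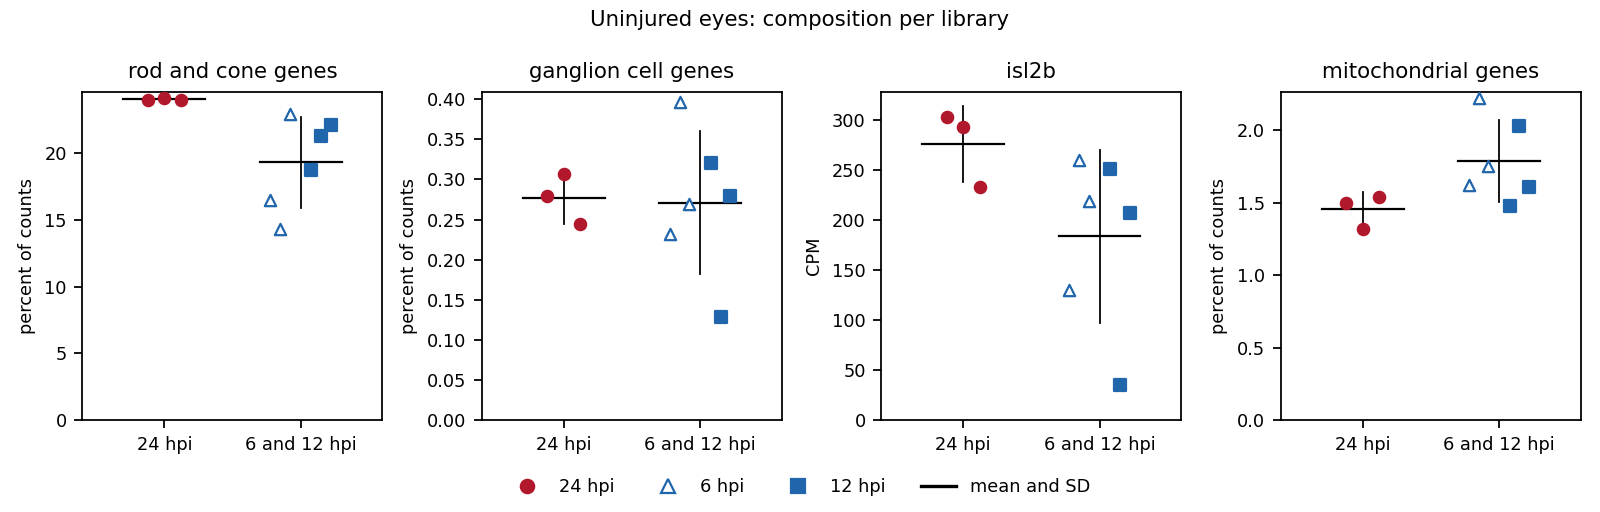
Percent of counts in rod and cone genes, percent in ganglion cell genes, isl2b level (CPM) and percent of counts in mitochondrial genes, one point per control library, at 24 hpi (left) and at 6 and 12 hpi (right); bars are means with SD. The rod and cone share lies at 24.0% to 24.1% in the 3 libraries of 24 hpi and at 14.3% to 22.9% in the 6 others, and the ganglion cell share overlaps.

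Of 16148 genes tested, 405 differed at an edgeR quasi-likelihood adjusted p under 0.05, which is 2.51% of them. Of these, 185 (1.15%) were higher at 24 hpi and 220 (1.36%) were lower. The median change among the calls was 1.91-fold for genes that rose and 2.16-fold for genes that fell. The large changes were mostly falls: 83 genes rose and 130 fell by at least 2-fold, and 18 rose and 31 fell by at least 4-fold. In 400 of the 405 genes the 3 libraries of 24 hpi all lay outside the range of the 6 others, a separation that 1504 of all 16148 genes showed (9.31%). Across all genes tested the median log2 fold change was -0.02.

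**Figure D2:**
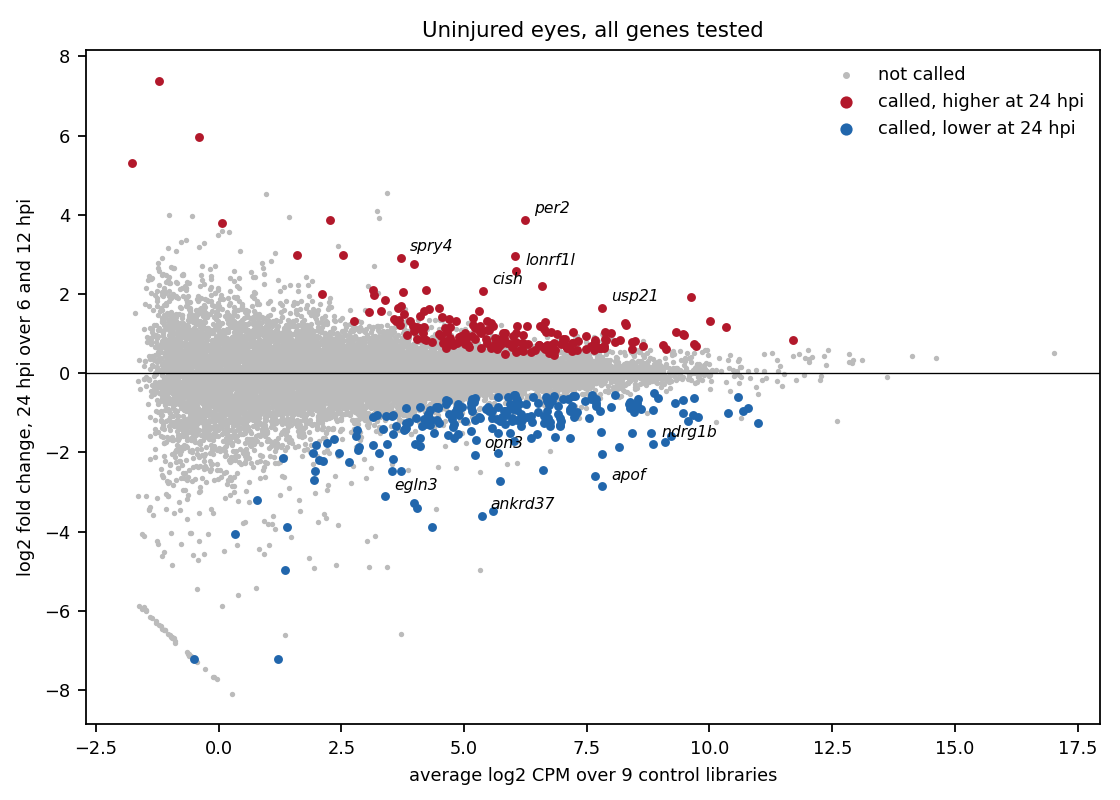
Log2 fold change of 24 hpi over 6 and 12 hpi against the average log2 CPM of the 9 control libraries, one point per gene tested. The 185 genes called higher (red) and the 220 called lower (blue) are drawn larger; per2 lies at 3.88 and ankrd37 at -3.59.

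The period gene per2 rose most among called genes with an average log2 CPM of at least 3 (ENSDARG00000034503, minus strand of chromosome 2, 48309600 to 48375342, as the deposited tables place it; the submitters' processing notes name GRCz11). It stood at 194, 207 and 199.99 CPM at 24 hpi, against 7.80, 12.1 and 14.4 at 6 hpi and 10.1, 19.2 and 18.5 at 12 hpi. Every library of 24 hpi was far above all 6 others, and the means were 200.4 ± 6.49 CPM at 24 hpi (SD, n = 3) and 13.7 ± 4.54 CPM at 6 and 12 hpi (SD, n = 6), a 14.7-fold difference. For per2, the log2 fold change was 3.88 (SE 0.24, edgeR adjusted p = 1.15e-05). The light-induced cryptochrome gene cry1a rose as well, with 345, 294 and 367 CPM at 24 hpi, against 149, 174 and 189.9 at 6 hpi and 192, 211 and 216 at 12 hpi. For cry1a, the log2 fold change was 0.83 (SE 0.13, edgeR adjusted p = 0.0056). A further cryptochrome gene, cry2, had 172, 194 and 199 CPM at 24 hpi, against 97.995, 70.4 and 82.3 at 6 hpi and 109, 152 and 115 at 12 hpi, without overlap. For cry2, the log2 fold change was 0.85 (SE 0.20, edgeR adjusted p = 0.041).

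These 3 were the called members among 19 clock repressor genes tested, all of them higher, beside 1.15% of all genes called higher, and the list's median log2 fold change was 0.17. The list had 2 called higher without any 1 of the 3 libraries of 24 hpi, against 12 hpi alone or with the replicate block. It had 1 in the larger S number set or with the rod and cone share as a covariate. DESeq2 called 4 higher and 1 lower. Over 23 alternatives of the fit per2 was called in 23, cry1a in 21 and cry2 in 12. The other period genes were not called: per1a had 36.9 to 61.7 CPM at 24 hpi, against 40.04 to 75.03 CPM at 6 and 12 hpi, per1b 320.4 to 387 CPM at 24 hpi, against 239 to 434 CPM at 6 and 12 hpi, and per3 259.5 to 291 CPM at 24 hpi, against 174 to 355 CPM at 6 and 12 hpi, each overlapping between the groups, with log2 fold changes of -0.14, 0.26 and 0.17. The nuclear receptor gene nr1d1, which represses Bmal genes, had 183 to 193 CPM at 24 hpi, against 86.1 to 153 CPM at 6 and 12 hpi and was above the others in every 24 hpi library but missed the threshold. For nr1d1, the log2 fold change was 0.57 (SE 0.18, edgeR adjusted p = 0.13). Its relative nr1d2a had 139 to 276 CPM at 24 hpi, against 268 to 379 CPM at 6 and 12 hpi, with 1 library of 24 hpi inside the range of the others. For nr1d2a, the log2 fold change was -0.59 (SE 0.19, edgeR adjusted p = 0.15). Of the other repressors, cry1b, cry3a, cry3b, cry4, nr1d2b, nr1d4a, nr1d4b, bhlhe40, bhlhe41, ciarta and ciartb, none was called, with log2 fold changes from -0.62 to 0.45.

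None of the 11 clock activator genes tested was called, beside 2.51% of all genes. arntl1b, which encodes a Bmal1 protein, had 21.8 to 23.3 CPM at 24 hpi, against 26.6 to 39.6 CPM at 6 and 12 hpi (log2 fold change -0.51, SE 0.17, edgeR adjusted p = 0.16), below all 6 others. Its partner gene clockb had 8.41 to 14.7 CPM at 24 hpi, against 12.6 to 25.8 CPM at 6 and 12 hpi, which overlapped. For clockb, the log2 fold change was -0.64 (SE 0.25, edgeR adjusted p = 0.25). The remaining activators (clocka, npas2, arntl1a, arntl2, roraa, rorab, rorb, rorca and rorcb) had log2 fold changes between -0.88 and 0.43. Among 9 PAR bZIP and related D-box factor genes, tefa, which light induces in zebrafish, was the only one called, beside 1.15% of all genes called higher. It had 268, 287 and 273 CPM at 24 hpi, against 138, 140.0 and 133 at 6 hpi and 174, 213 and 206 at 12 hpi. For tefa, the log2 fold change was 0.72 (SE 0.16, edgeR adjusted p = 0.036). The list had 0 called higher without any 1 of the 3 libraries of 24 hpi or of the 3 of 6 hpi. It also had 0 called higher without replicate 1 of 12 hpi, in the larger S number set or with the replicate block. The repressor gene nfil3 had 38.1 to 63.4 CPM at 24 hpi, against 15.5 to 37.9 CPM at 6 and 12 hpi (log2 fold change 0.97, SE 0.26, edgeR adjusted p = 0.074), and dbpa, dbpb, tefb, hlfa, hlfb, nfil3-5 and nfil3-6 had log2 fold changes from -0.66 to 0.45. Of these, dbpb was below all 6 others in every 24 hpi library (log2 fold change -0.43, edgeR adjusted p = 0.13). The 2 pooled times differed for nfil3-6, with 468.7 to 519.1 CPM at 12 hpi and 252.7 to 337 CPM at 6 hpi. Its 24 hpi libraries had 224.3 to 361.5 CPM, and 12 against 6 hpi was not called (edgeR adjusted p = 0.68).

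Of 9 light-inducible DNA repair and related genes tested, 4 were called higher and 0 lower, beside 1.15% of all genes called higher. The members of this and the other lists were chosen with earlier results of these data known, so such counts describe the lists and test nothing. The RING finger gene lonrf1l, induced by light in zebrafish, had 153, 129.7 and 165 CPM at 24 hpi, against 23.1, 19.2 and 22.6 at 6 hpi and 21.5, 37.5 and 27.4 at 12 hpi. For lonrf1l, the log2 fold change was 2.57 (SE 0.19, edgeR adjusted p = 2.64e-05). Its paralog lonrf1, which was not in the list, had 73.7, 66.8 and 72.2 CPM at 24 hpi, against 20.1, 26.2 and 21.8 at 6 hpi and 23.6, 33.7 and 17.4 at 12 hpi. For lonrf1, the log2 fold change was 1.57 (SE 0.18, edgeR adjusted p = 9.30e-04). The photolyase gene cry5, whose product repairs ultraviolet photoproducts, was low but separated, with 6.84, 7.42 and 11.2 CPM at 24 hpi, against 1.53, 2.52 and 1.53 at 6 hpi and 2.77, 2.33 and 1.96 at 12 hpi. For cry5, the log2 fold change was 2.01 (SE 0.34, edgeR adjusted p = 0.0077). cry-dash, a photolyase of the DASH family, had 35.9 to 55.1 CPM at 24 hpi, against 7.99 to 27.202 CPM at 6 and 12 hpi, and ddb2, which recognises ultraviolet damage, had 23.4 to 34.7 CPM at 24 hpi, against 7.14 to 14.2 CPM at 6 and 12 hpi. Both were called, with log2 fold changes of 1.37 (SE 0.32, edgeR adjusted p = 0.041) and 1.45 (SE 0.25, edgeR adjusted p = 0.0086). The members not called were xpc, uvssa, neil1, polh and zgc:66475, at log2 fold changes from -0.79 to 0.60. With the rod and cone share as a covariate, per2 and lonrf1l were still called, while cry1a, cry2, tefa, cry5, cry-dash and ddb2 were not. Their log2 fold changes with the covariate were 0.64 for cry1a, 0.56 for cry2, 0.51 for tefa, 2.18 for cry5, 0.79 for cry-dash and 1.04 for ddb2. The 4 repair calls became 2 without replicate 2 or replicate 3 of 24 hpi, 2 against 12 hpi alone and 1 in the larger S number set.

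**Figure D3:**
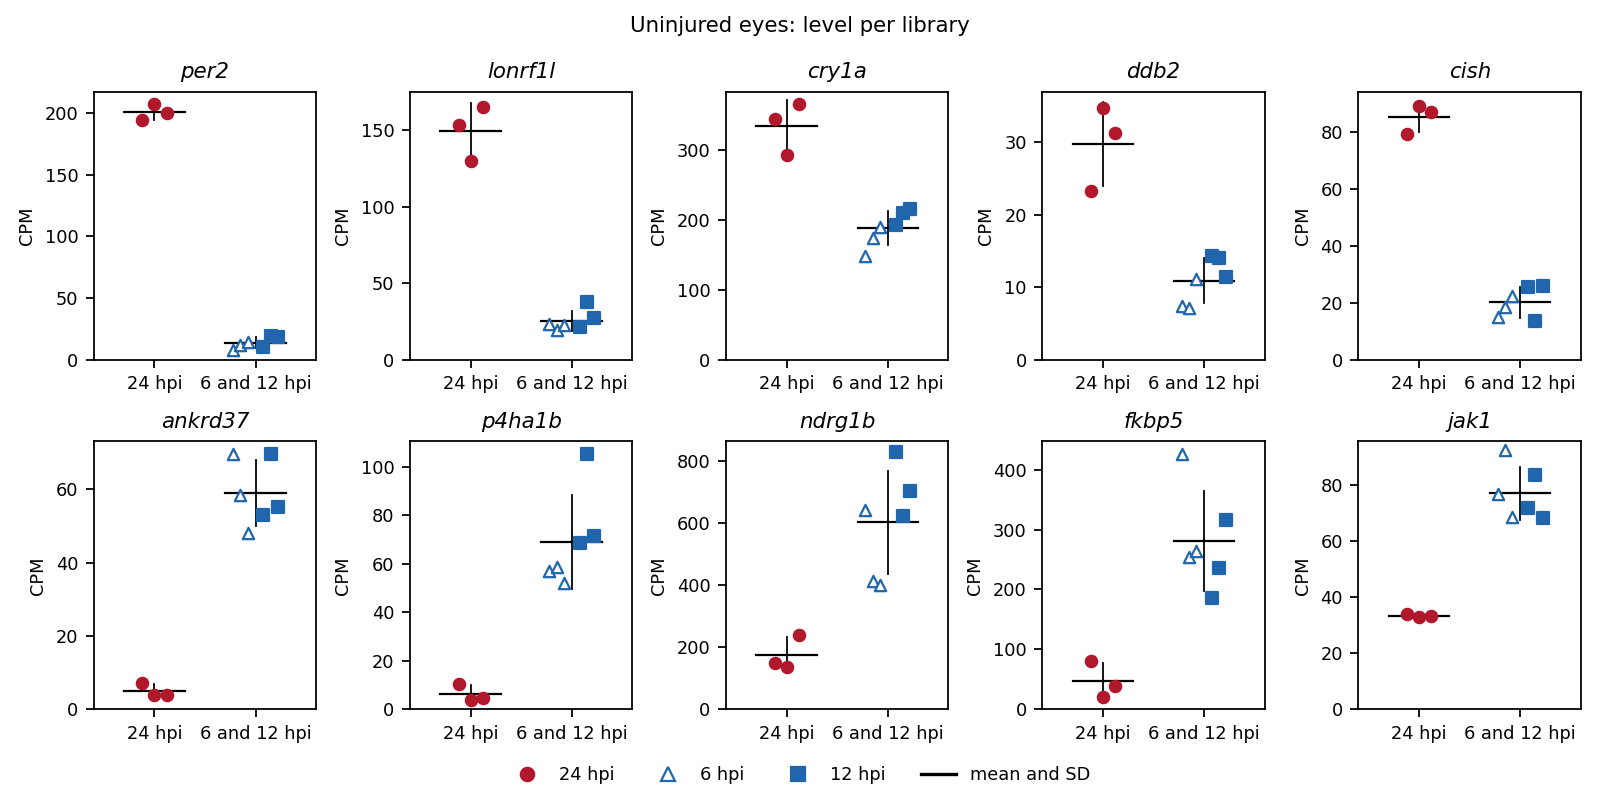
Level (CPM) of 10 named genes in each control library, at 24 hpi (left) and at 6 and 12 hpi (right), on axes that start at 0; bars are means with SD. per2, lonrf1l, cry1a, ddb2 and cish are higher and ankrd37, p4ha1b, ndrg1b, fkbp5 and jak1 lower in all 3 libraries of 24 hpi than in any of the 6 others.

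Of 28 hypoxia-inducible genes tested, 9 were called lower at 24 hpi, 0 were called higher and 19 were not called, where 1.36% of all genes were called lower. These members too were chosen with earlier results of these data known. A log2 fold change above 0 was found in 9 of the 28. The list's median log2 fold change was -0.26, against -0.02 over all genes. ankrd37, an ankyrin repeat gene that hypoxia-inducible factor induces in mammals (ENSDARG00000056376, plus strand of chromosome 1, 17695426 to 17698773), had 7.04, 3.88 and 3.92 CPM at 24 hpi, against 69.6, 58.5 and 47.99 at 6 hpi and 53.1, 69.8 and 55.2 at 12 hpi. It was 12.1-fold lower at 24 hpi, with no overlap. For ankrd37, the log2 fold change was -3.59 (SE 0.24, edgeR adjusted p = 1.80e-05). The oxygen-sensing prolyl hydroxylase gene egln3 had 1.29, 1.53 and 2.28 CPM at 24 hpi, against 9.57, 18.04 and 9.07 at 6 hpi and 14.4, 21.4 and 16.3 at 12 hpi. For egln3, the log2 fold change was -3.10 (SE 0.37, edgeR adjusted p = 0.001). p4ha1b, a collagen prolyl 4-hydroxylase subunit gene, had 10.4, 3.79 and 4.70 CPM at 24 hpi, against 57.04, 58.8 and 51.9 at 6 hpi and 68.8, 105 and 71.6 at 12 hpi. For p4ha1b, the log2 fold change was -3.48 (SE 0.35, edgeR adjusted p = 3.75e-04).

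The other falls in the list were smaller, and in each of them all 3 libraries of 24 hpi lay below the 6 others. ndrg1b, a stress-responsive gene, had 149, 135 and 239.7 CPM at 24 hpi, against 641, 414 and 399 at 6 hpi and 827, 623 and 703 at 12 hpi. For ndrg1b, the log2 fold change was -1.78 (SE 0.27, edgeR adjusted p = 0.0039). pfkfb3, whose product raises the rate of glycolysis, had 31.2 to 38.8 CPM at 24 hpi, against 72.8 to 167 CPM at 6 and 12 hpi, and bnip3lb, a mitophagy receptor gene, had 83.8 to 97.3 CPM at 24 hpi, against 145 to 189 CPM at 6 and 12 hpi. ero1a, an oxidase gene of the endoplasmic reticulum, had 2.71 to 5.63 CPM at 24 hpi, against 10.2 to 21.8 CPM at 6 and 12 hpi. The log2 fold changes were -1.64 for pfkfb3, -0.89 for bnip3lb and -1.79 for ero1a (edgeR adjusted p = 0.0029, 0.0029 and 0.018). Genes of the factor's own alpha subunits were among the calls: hif1ab had 324 to 433 CPM at 24 hpi, against 483 to 631 CPM at 6 and 12 hpi, and hif1al 52.74 to 68.1 CPM at 24 hpi, against 119 to 209.8 CPM at 6 and 12 hpi, at log2 fold changes of -0.62 and -1.34 (edgeR adjusted p = 0.033 and 0.0039). Glycolytic members were not called: ldha had 404 to 478 CPM at 24 hpi, against 426 to 589 CPM at 6 and 12 hpi, and pgk1 514 to 576 CPM at 24 hpi, against 519 to 741 CPM at 6 and 12 hpi, both overlapping. The glucose transporter gene slc2a1a had 66.96 to 96.3 CPM at 24 hpi, against 18.7 to 58.2 CPM at 6 and 12 hpi, without overlap. Its positive log2 fold change of 0.97 was not called. The genes vegfaa and vegfab, which encode the angiogenic growth factor, were at 0.35 and -0.83, also not called. Of the 9 members, 8 were still called lower with the rod and cone share as a covariate, where hif1ab was at -0.69. All 9 were called lower with the S number set as a covariate. That set was inferred from the well and S number in the sample descriptions, which name no set. Over the alternatives of the fit the number called lower ranged from 6 to 10. In some of them 1 member was called higher: with DESeq2, with 3 group means, in the fit of all 18 libraries, against 6 hpi alone and without replicate 3 of 12 hpi.

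Of 16 glucocorticoid targets tested, 3 were called lower and 0 higher, beside 1.36% of all genes called lower. fkbp5, a co-chaperone gene of the glucocorticoid receptor that the receptor induces, had 80.4, 20.98 and 39.6 CPM at 24 hpi, against 427, 255 and 263 at 6 hpi and 185, 236 and 316 at 12 hpi. All 3 libraries of 24 hpi were below the lowest of the others, though they differed among themselves, with means of 46.99 ± 30.4 CPM at 24 hpi (SD, n = 3) and 280.4 ± 83.3 CPM at 6 and 12 hpi (SD, n = 6). For fkbp5, the log2 fold change was -2.58 (SE 0.39, edgeR adjusted p = 0.0041). tsc22d3, which encodes the glucocorticoid-induced leucine zipper, had 195 to 338 CPM at 24 hpi, against 412 to 672 CPM at 6 and 12 hpi. For tsc22d3, the log2 fold change was -0.94 (SE 0.20, edgeR adjusted p = 0.032). zbtb16a, a zinc finger repressor gene, had 7.76 to 11.3 CPM at 24 hpi, against 13.05 to 30.2 CPM at 6 and 12 hpi. For zbtb16a, the log2 fold change was -1.15 (SE 0.27, edgeR adjusted p = 0.0482). Of the targets not called, klf9 and ddit4 had log2 fold changes of -1.15 and -0.91, and sgk1, dusp1 and per1a had -0.07, -0.45 and -0.14. The list's median was -0.53. With the rod and cone share as a covariate, fkbp5 was still called (edgeR adjusted p = 0.0497). tsc22d3 and zbtb16a were not, at log2 fold changes of -0.99 and -0.88. The 3 calls became 1 without replicate 2 or 3 of 24 hpi, without replicate 1 or 3 of 12 hpi, or without replicate 1 of 6 hpi, and 2 without replicate 1 of 24 hpi, replicate 2 of 6 hpi or replicate 3 of 6 hpi.

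JAK/STAT signalling was the pathway named in the study's title, and 3 of its 30 tested genes were called, beside 2.51% of all genes. Both calls that rose encode feedback inhibitors of cytokine receptors: cish (ENSDARG00000060316, plus strand of chromosome 6, 41503854 to 41506749) had 79.6, 89.3 and 87.2 CPM at 24 hpi, against 14.9, 18.5 and 22.5 at 6 hpi and 25.6, 13.6 and 26.04 at 12 hpi (log2 fold change 2.08, SE 0.20, edgeR adjusted p = 2.33e-04), and SOCS2 had 25.9, 17.8 and 29.1 CPM at 24 hpi, against 7.92, 7.22 and 4.99 at 6 hpi and 10.4, 7.16 and 6.91 at 12 hpi. For SOCS2, the log2 fold change was 1.70 (SE 0.24, edgeR adjusted p = 0.0029). A Janus kinase gene, jak1 (ENSDARG00000020625, plus strand of chromosome 6, 31368071 to 31429161), fell, with 33.9, 33.04 and 33.2 CPM at 24 hpi, against 76.9, 92.7 and 68.8 at 6 hpi and 71.9, 83.8 and 68.3 at 12 hpi. Its 3 libraries of 24 hpi were close together and all below the others, at means of 33.4 ± 0.431 CPM at 24 hpi (SD, n = 3) and 77.1 ± 9.60 CPM at 6 and 12 hpi (SD, n = 6). For jak1, the log2 fold change was -1.21 (SE 0.14, edgeR adjusted p = 8.55e-04). The remaining 27 genes of the list were not called, and its median log2 fold change was -0.04. All 3 calls held with the rod and cone share as a covariate and without any one of the 9 libraries, and in the larger S number set 1 was called higher and 1 lower.

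Few photoreceptor genes were called. Of 39 rod and cone genes tested, 3 were called higher and 1 lower, beside 1.15% and 1.36% of all genes. The 1 call lower lies near that share. There were 0 calls without replicate 1 or replicate 2 of 24 hpi or in the larger S number set, and 1 higher and 2 lower without replicate 3 of 24 hpi. Without replicate 1 or replicate 2 of 12 hpi, 1 was called higher and 0 lower, without replicate 2 of 6 hpi 1 higher and 1 lower, and without replicate 3 of 12 hpi or of 6 hpi 2 higher and 0 lower. The rod arrestin gene saga had 4744, 4909.9 and 4364 CPM at 24 hpi, against 2174, 1862 and 2976 at 6 hpi and 2548, 3433 and 2794 at 12 hpi. For saga, the log2 fold change was 0.83 (SE 0.16, edgeR adjusted p = 0.02). rom1a, which encodes a protein of the outer segment discs, had 892 to 1321 CPM at 24 hpi, against 302 to 835 CPM at 6 and 12 hpi (log2 fold change 1.00, SE 0.24, edgeR adjusted p = 0.0496), and the ultraviolet cone opsin gene opn1sw1 had 183, 366 and 53.9 CPM at 24 hpi, against 90.04, 41.6 and 20.7 at 6 hpi and 26.8, 23.4 and 59.05 at 12 hpi, where the libraries of 24 hpi spread widely and overlapped the others. For opn1sw1, the log2 fold change was 2.2 (SE 0.52, edgeR adjusted p = 0.0451). pde6ga, the gene of an inhibitory subunit of the phototransduction phosphodiesterase, fell, with 1379.5, 798 and 979 CPM at 24 hpi, against 1623, 1529.9 and 3457 at 6 hpi and 2044, 3495 and 3028 at 12 hpi. For pde6ga, the log2 fold change was -1.27 (SE 0.30, edgeR adjusted p = 0.045). In a list of 21 melatonin and phototransduction genes, saga and the rhodopsin kinase gene grk1a were the calls, beside 1.15% of all genes called higher. That list had 0 calls without any 1 of the 3 libraries of 24 hpi, against 12 hpi alone or in the larger S number set. The gene grk1a rose, with 408 to 624 CPM at 24 hpi, against 218 to 369 CPM at 6 and 12 hpi. For grk1a, the log2 fold change was 0.82 (SE 0.18, edgeR adjusted p = 0.035). The rhodopsin gene rho had 162600 to 170460 CPM at 24 hpi, against 76776 to 152070 CPM at 6 and 12 hpi (log2 fold change 0.51, SE 0.17, edgeR adjusted p = 0.18) and was not called, and 23 of the 39 genes had a log2 fold change above 0, against 7768 of all 16148 genes tested. Since saga and grk1a belong to the cells whose share of counts was higher at 24 hpi, their changes and that share cannot be told apart here, and neither gene was called with the share as a covariate, at log2 fold changes of 0.44 for saga and 0.50 for grk1a. The counts of saga are themselves part of that share, and those of rho, which was not called, make up a large part of it. The share also did not overlap between the groups, so this fit cannot separate it from the time of collection.

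Bipolar cell genes, which mark the second-order neurons of the retina, gave 1 call higher and 2 lower of 16 tested, beside 1.15% and 1.36% of all genes. trpm1b, the channel gene of ON bipolar cells, had 286 to 294 CPM at 24 hpi, against 144 to 229.8 CPM at 6 and 12 hpi. For trpm1b, the log2 fold change was 0.63 (SE 0.15, edgeR adjusted p = 0.0461). vsx1 and bhlhe23, both transcription factor genes, had 401 to 557 CPM at 24 hpi, against 637 to 961 CPM at 6 and 12 hpi for vsx1 and 216 to 228 CPM at 24 hpi, against 331 to 539 CPM at 6 and 12 hpi for bhlhe23, at log2 fold changes of -0.68 and -0.83 (edgeR adjusted p = 0.0467 and 0.024). The bipolar list had 0 calls without any one of the 3 libraries of 24 hpi, without replicate 1 of 6 hpi, against 12 hpi alone, in the larger S number set or with the rod and cone share as a covariate. It had 0 called higher and 1 lower without replicate 3 of 12 hpi or replicate 2 of 6 hpi. With the share as a covariate the log2 fold changes were 0.40 for trpm1b, -0.52 for vsx1 and -0.81 for bhlhe23. Among 23 ganglion cell genes tested, the vesicular glutamate transporter gene slc17a6b was the only call, beside 1.15% of all genes called higher. It had 69.6, 62.5 and 51.04 CPM at 24 hpi, against 34.3, 46.6 and 30.4 at 6 hpi and 28.4, 19.6 and 22.9 at 12 hpi. For slc17a6b, the log2 fold change was 1.00 (SE 0.23, edgeR adjusted p = 0.04). The ganglion cell list had 0 called higher without any 1 of the 3 libraries of 24 hpi or against 6 hpi alone. It also had 0 called higher in the larger S number set, with isl2b as a covariate or with the replicate block. Over 23 alternatives of the fit slc17a6b was called in 11, among them the rod and cone share as a covariate. The ganglion cell transcription factor genes pou4f1, pou4f2, pou4f3 and isl2a were at log2 fold changes of 0.40, 0.21, 0.38 and 0.00, none called. No gene of the amacrine (14 tested), horizontal (2), Müller glia (14), macrophage (9), erythrocyte (1), endothelium (6), pigment epithelium (8) or lens (8) lists was called. The share over all genes was 2.51%, at which lists this small would hold few or no calls. Their lack of calls therefore does not show that these cells were unchanged. DESeq2, which called more genes in all, called 3 Müller glia genes higher and 1 lower, 1 amacrine gene higher and 1 lens gene lower.

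Of 29 cholesterol synthesis genes tested, 3 were called higher and 0 lower, beside 1.15% of all genes called higher. A log2 fold change above 0 was found in 25 of the 29, against 7768 of all 16148 genes. Such a lean was not particular to this list. It was found in 72 of 75 cytosolic ribosomal protein genes (median log2 fold change 0.09) and 20 of 26 unfolded protein response genes. Other lists leaned the other way, with 4 of 11 clock activators and 3 of 16 glucocorticoid targets above 0. hmgcs1, which encodes the synthase before the rate-limiting step, had 180.3 to 188 CPM at 24 hpi, against 73.4 to 135 CPM at 6 and 12 hpi, msmo1, a sterol oxidase gene, 20.8 to 29.8 CPM at 24 hpi, against 8.51 to 14.6 CPM at 6 and 12 hpi, and insig1, the gene of the sterol sensor that retains SREBP, 132 to 189 CPM at 24 hpi, against 59.8 to 105 CPM at 6 and 12 hpi. Their log2 fold changes were 0.87, 1.06 and 1.05 (edgeR adjusted p = 0.035, 0.02 and 0.0087), and the list's median was 0.61. With the rod and cone share as a covariate none of the 3 was called, at log2 fold changes of 0.57 for hmgcs1, 1.13 for msmo1 and 0.91 for insig1. The 3 calls became 0 without replicate 1 or replicate 3 of 24 hpi, 1 without replicate 2 of 24 hpi and 0 against 12 hpi alone or in the larger S number set. Among 24 heat shock genes hspd1 and hspa4a were called higher and 0 lower, beside 1.15% of all genes called higher. The heat shock list had 0 calls without any 1 of the 3 libraries of 24 hpi or against 12 hpi alone. It also had 0 in the larger S number set or with the rod and cone share as a covariate. Among 26 genes of the unfolded protein response the luminal chaperone hspa5 rose while the phosphatase subunit gene ppp1r15a fell, beside 1.15% and 1.36% of all genes. Over 23 alternatives of the fit hspa5 was called in 21, hspa4a in 13, hspd1 in 6 and ppp1r15a in 5. hspa5 had 302 to 365 CPM at 24 hpi, against 142 to 216 CPM at 6 and 12 hpi (log2 fold change 0.85, SE 0.13, edgeR adjusted p = 0.0058), and hspd1, hspa4a and ppp1r15a had log2 fold changes of 0.65, 0.64 and -0.56. None of 28 immediate early genes, none of 75 cytosolic ribosomal protein genes and none of 35 ion channel genes was called, beside 2.51% of all genes. The calls among 76 respiratory chain genes were ndufs8b, higher with 293 to 305 CPM at 24 hpi, against 154 to 249.98 CPM at 6 and 12 hpi, and cox6b1, lower with 15.8 to 28.3 CPM at 24 hpi, against 40.4 to 58.98 CPM at 6 and 12 hpi. cplx4a, a complexin gene of ribbon synapses, was the single call of 34 synaptic vesicle genes, and fell with 406 to 571 CPM at 24 hpi, against 783 to 1192 CPM at 6 and 12 hpi. The 2 respiratory chain calls and the 1 synaptic vesicle call lie near the 2.51% share of all genes. For cplx4a, the log2 fold change was -1.04 (SE 0.16, edgeR adjusted p = 0.0056).

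**Figure D4:**
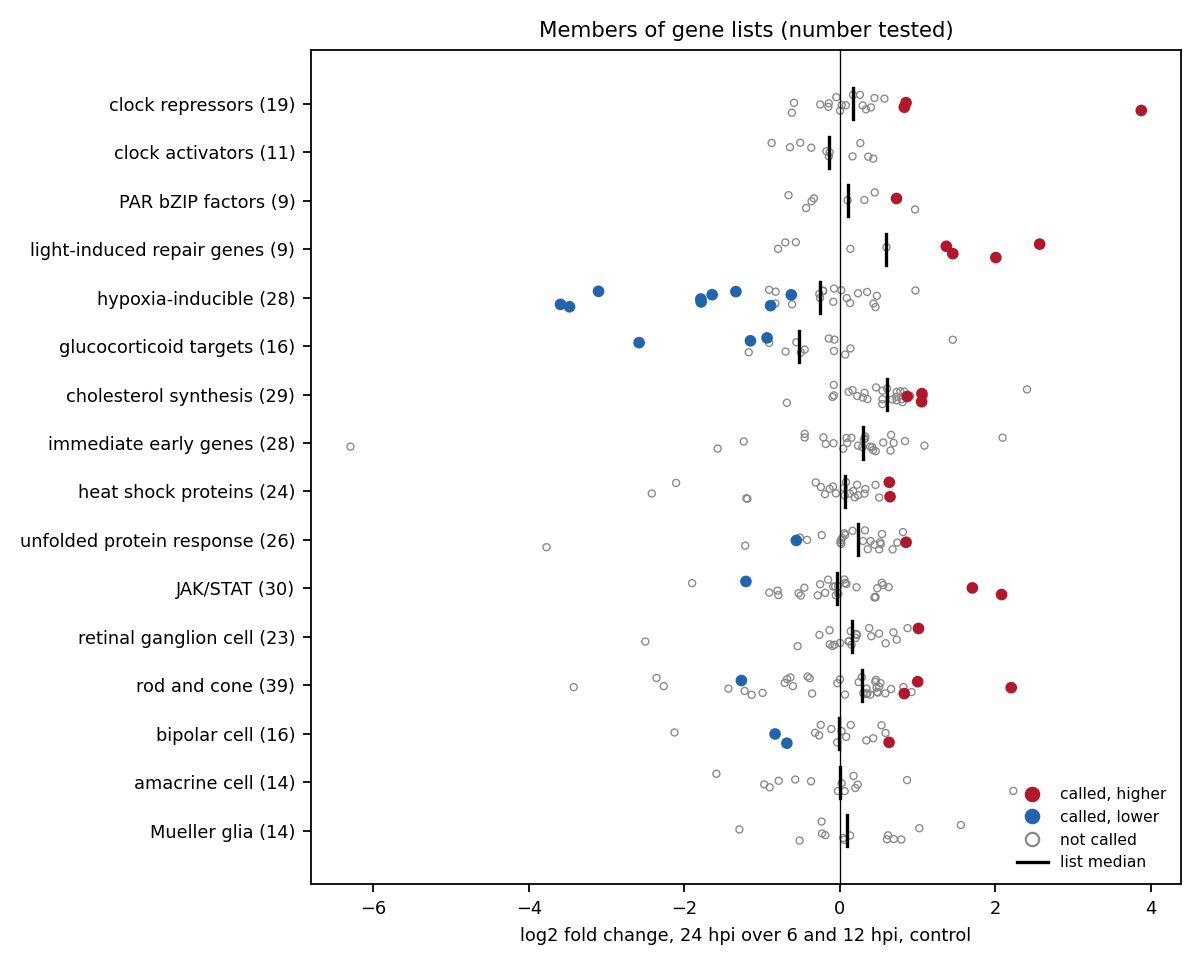
Log2 fold change of 24 hpi over 6 and 12 hpi for the tested members of 16 gene lists (number tested in brackets), with called members filled, others open and a black tick at each list's median. The called hypoxia-inducible and glucocorticoid genes all lie below 0 and the called clock repressor, light repair and cholesterol genes all lie above 0.

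Beyond the lists, the 15 largest rises among non-overlapping calls above that level held the following genes. spry4, which encodes an inhibitor of receptor tyrosine kinase signalling, had 27.8, 26.5 and 38.4 CPM at 24 hpi, against 4.28, 0.214 and 7.13 at 6 hpi and 1.79, 3.03 and 8.19 at 12 hpi. For spry4, the log2 fold change was 2.92 (SE 0.63, edgeR adjusted p = 0.031). It was not called against 6 hpi alone or 12 hpi alone, at 3 and 2.84 (edgeR adjusted p = 0.106 and 0.155). With the rod and cone share as a covariate it was at 1.70 and not called (edgeR adjusted p = 0.473). The neurotrophin gene ntf3 had 29.7, 25.1 and 27.03 CPM at 24 hpi, against 3.72, 6.93 and 4.94 at 6 hpi and 9.28, 8.10 and 6.78 at 12 hpi (log2 fold change 2.04, SE 0.26, edgeR adjusted p = 0.0015), and nocta, the gene of nocturnin, an enzyme with a daily rhythm in vertebrates, had 39.3, 35.5 and 30.997 CPM at 24 hpi, against 9.73, 6.84 and 15.4 at 6 hpi and 10.9, 13.3 and 13.02 at 12 hpi. For nocta, the log2 fold change was 1.61 (SE 0.23, edgeR adjusted p = 0.0029). The deubiquitinase gene usp21 had 376, 362 and 494 CPM at 24 hpi, against 89.96, 86.5 and 177 at 6 hpi and 133, 155 and 145 at 12 hpi. For usp21, the log2 fold change was 1.65 (SE 0.21, edgeR adjusted p = 0.0015). dhrs12, lrrc58a, nab1a, rrm2_2, osgn1 and plk3 completed the list with per2, lonrf1l, cish, SOCS2 and lonrf1, at log2 fold changes from 1.64 to 2.11.

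The 15 largest falls by the same rule were led by cacna2d4a. This gene, which encodes a calcium channel subunit of photoreceptor synapses, appeared as 2 neighbouring gene identifiers on chromosome 4, between which the counting may have split reads. The first had 2.91, 2.05 and 1.12 CPM at 24 hpi, against 38.8, 29.1 and 32.9 at 6 hpi and 22.1, 39.96 and 14.1 at 12 hpi, and the second 3.45, 1.32 and 2.28 CPM at 24 hpi, against 31.1, 24.2 and 14.2 at 6 hpi and 18.2, 31.5 and 15.6 at 12 hpi, at log2 fold changes of -3.88 and -3.27 (edgeR adjusted p = 5.38e-04 and 0.001). The calcium-binding protein gene cabp2b had 10.7, 10.2 and 12.4 CPM at 24 hpi, against 86.1, 80.6 and 51.6 at 6 hpi and 54.9, 100.2 and 69.3 at 12 hpi. For cabp2b, the log2 fold change was -2.73 (SE 0.24, edgeR adjusted p = 1.16e-04). camk2n2, the gene of an inhibitor of calmodulin-dependent kinase II, had 85.5, 64.7 and 69.02 CPM at 24 hpi, against 386, 284 and 236 at 6 hpi and 285, 283 and 318 at 12 hpi (log2 fold change -2.03, SE 0.17, edgeR adjusted p = 8.95e-05), and rrad, a GTPase gene that dampens calcium channels, had 0.862 to 5.21 CPM at 24 hpi, against 16.5 to 29.9 CPM at 6 and 12 hpi. For rrad, the log2 fold change was -3.39 (SE 0.55, edgeR adjusted p = 0.0064). apof, an apolipoprotein gene (ENSDARG00000090980, minus strand of chromosome 6, 39162294 to 39167732), shared the smallest adjusted p with per2: it had 34.1, 50.5 and 46.3 CPM at 24 hpi, against 401, 312 and 331 at 6 hpi and 258, 289 and 309 at 12 hpi. For apof, the log2 fold change was -2.86 (SE 0.18, edgeR adjusted p = 1.15e-05). The non-visual opsin gene opn3 had 13.3, 8.996 and 13.8 CPM at 24 hpi, against 61.7, 57.2 and 61.03 at 6 hpi and 28.6, 51.4 and 40.5 at 12 hpi. For opn3, the log2 fold change was -2.06 (SE 0.27, edgeR adjusted p = 0.0015). The falls were completed by her4.2_1, itpkcb, dipk2aa and prnpa, at log2 fold changes from -2.46 to -2.02, with ankrd37, p4ha1b, egln3 and fkbp5 from the lists. The gene her4.2_1 belongs to a family of near-identical copies, so its counts are uncertain.

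Between 12 and 6 hpi, in a model with a mean for each time, 0 of 16148 genes were called by edgeR (0%), with 930 at an unadjusted p under 0.05 and a smallest adjusted p of 0.108. DESeq2 called 35, and edgeR on those 6 libraries alone called 14. Against 6 hpi alone, 275 genes were called at 24 hpi (137 higher, 138 lower), and against 12 hpi alone 203 (69 higher, 134 lower). Those 2 contrasts share the 24 hpi libraries. per2 had a log2 fold change of 4.14 against 6 hpi and 3.66 against 12 hpi, and ankrd37 had -3.59 and -3.60. The members called against 12 hpi alone included per2, cry1a, lonrf1l and ddb2 but not cry2, tefa, cry5 or cry-dash.

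The injured eyes of the series, collected at the same times and sharing no library with the controls, gave the same comparison in other libraries. By the design each control eye came from a fish operated on the other eye, so injured and control libraries may share fish. Which libraries do is not stated, so the comparison is not known to be a repeat in separate fish. Of 16328 genes tested there, 378 were called (2.32%), 162 higher and 216 lower at 24 hpi. Of the 405 genes called in control eyes, 393 (97.0%) had a log2 fold change of the same sign in injured eyes, where 66.2% of the 15689 genes tested in both did. The genes called in both numbered 172, which is 46.1% of the injured calls that were tested in control eyes and 42.5% of the control calls, and all 172 had the same sign. Control calls that rose had a median log2 fold change of 0.72 in injured eyes and 0.93 in control eyes, and those that fell -0.86 in injured eyes and -1.11 in control eyes. The control values chose these genes. Not every list carried over. In injured eyes 2 of 39 rod and cone genes were called higher and 6 lower, and 0 of 29 cholesterol synthesis genes were called. Of 28 hypoxia-inducible genes 6 were called lower, and of 9 light-induced repair genes 3 higher. Of the 15689 genes, 157 were called higher and 216 lower there.

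In injured eyes per2 had 186, 225 and 155 CPM at 24 hpi, against 8.04, 5.97 and 8.64 at 6 hpi and 12.4, 11.9 and 15.8 at 12 hpi (log2 fold change 4.17, edgeR adjusted p = 6.73e-05). ankrd37 fell there too, with 7.36, 6.64 and 4.20 CPM at 24 hpi, against 40.9, 26.5 and 64.1 at 6 hpi and 43.9, 48.2 and 40.6 at 12 hpi (log2 fold change -2.86, edgeR adjusted p = 0.0011). Other calls shared by the 2 kinds of eye were lonrf1l (log2 fold change 2.05, edgeR adjusted p = 8.98e-04), cish (log2 fold change 2.33, edgeR adjusted p = 5.56e-04) and fkbp5 (log2 fold change -2.80, edgeR adjusted p = 0.0056), with the values those of injured eyes. Injured and control levels were scaled separately and are not compared here.

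The difference between the injured and the control change was called for 0 of 17527 genes by edgeR (0%), with 938 at an unadjusted p under 0.05 and a smallest adjusted p of 0.508, and DESeq2 called 25. The model took the 18 libraries as independent, so a possible pairing of injured and control eyes of the same fish was not modelled. Among the control calls, 49 of 405 had an unadjusted p under 0.05 for the difference. jak1 had the smallest such p of the named genes: in injured eyes it had 61.8, 53.2 and 67.3 CPM at 24 hpi, against 65.5, 58.3 and 64.4 at 6 hpi and 50.7, 91.4 and 81.1 at 12 hpi, which overlapped (log2 fold change -0.17, edgeR adjusted p = 0.72), and the change in injured minus that in control eyes was 1.03 (SE 0.22, unadjusted p = 1.83e-04, edgeR adjusted p = 0.53). ntf3 in injured eyes had 22.8, 16.9 and 12.8 CPM at 24 hpi, against 4.69, 8.16 and 13.3 at 6 hpi and 13.3, 17.3 and 6.72 at 12 hpi (log2 fold change 0.72, edgeR adjusted p = 0.37), and its difference was -1.32 (unadjusted p = 0.013, edgeR adjusted p = 0.88). Neither passed over all genes tested, which does not show that the eyes changed alike.

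**Figure D5:**
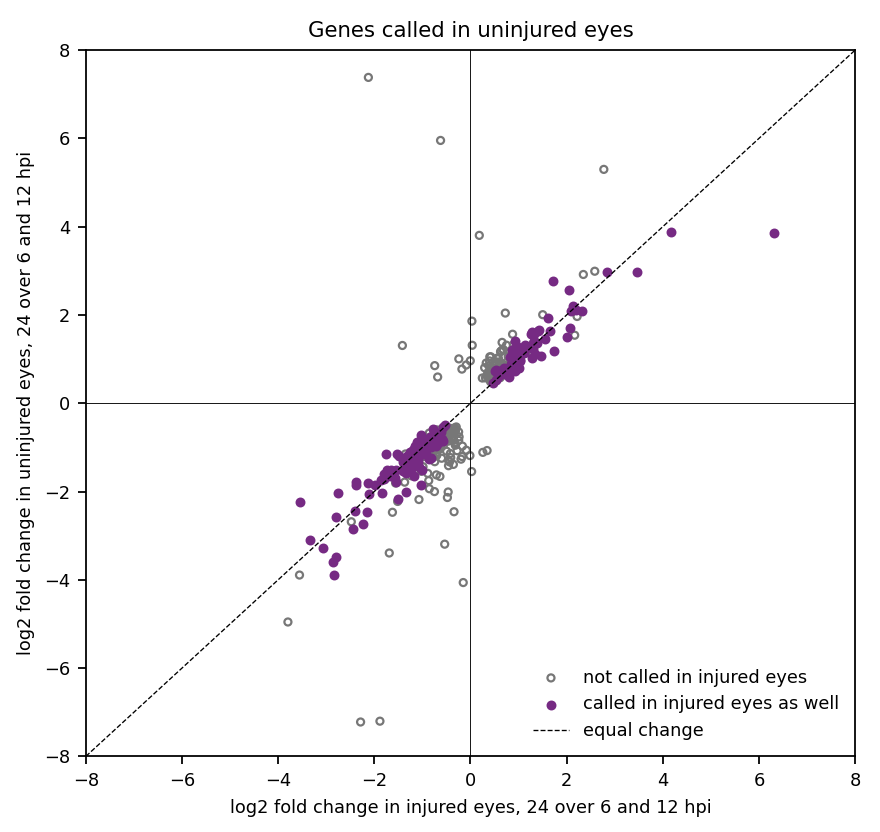
Log2 fold change of 24 hpi over 6 and 12 hpi in injured eyes (x axis) and in uninjured eyes (y axis) for the 405 genes called in uninjured eyes; filled points were called in injured eyes as well (172), and the dashed line marks equal change. Points in the upper left and lower right are the 12 genes of opposite sign.

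The number of calls rested on few libraries at 24 hpi. It was 173 without replicate 1, 118 without replicate 2 and 180 without replicate 3 of 24 hpi, 261 without replicate 1 of 12 hpi and 231 without replicate 1 of 6 hpi. With the rod and cone share as a covariate 89 genes were called (28 higher, 61 lower), and with only the libraries of the larger S number set, 2 of 24 hpi and 4 of 6 and 12 hpi, 126 were called. The rod and cone share did not overlap between the groups, so fits with it cannot separate it from the time of collection. DESeq2 called 923. Of the 64 named genes that were called, 29 were still called with the rod and cone share, and none changed direction under any alternative.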

How the data were processed

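Counts per gene (the total count columns), as deposited by the authors, were joined over 3 tables by gene identifier (25281 genes, 18 libraries). The genome build was GRCz11, per the submitters' processing notes; the aligner, counter and annotation release are not given in the sources used here. TPM columns were not used. Genes were kept by filterByExpr (minimum count 10). Two-group differences were tested with edgeR's quasi-likelihood test (edgeR 4.0.16, TMM scaling, R 4.3.3) and adjusted by Benjamini-Hochberg over all genes tested; an adjusted p under 0.05 is a call. SE is the log2 fold change divided by the root of F. CPM values are TMM-scaled. DESeq2 1.42.0 was one alternative among others. The edgeR steps were tested on simulated data.

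Named genes were the calls with the largest changes, at most 15 in each direction (average log2 CPM at least 3, groups apart, a gene symbol), all tested clock repressor, activator and PAR bZIP genes, called members of other lists, jak1 and isl2b. Members and lists were chosen with earlier results of these data known. The S number set was inferred from well and S number in the descriptions. In the smaller set were 1 control library of 24 hpi, 2 control libraries of 6 hpi and 1 injured library of 24 hpi. Control replicates were not duplicates of each other. Promoter sequences were not used here, so planned motif counts were not run.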

Additional observations from a re-analysis of the deposited data

Results flagged for a closer look

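Among 79 items examined for a single library standing far from the rest of the 6 control libraries of 6 and 12 hpi, 2 were picked out; chance picks about 1 in 20 such groups. p4ha1b was at 105 CPM in replicate 2 of 12 hpi, where the nearest other library had 71.6 CPM, and its call held without that library. Pigment epithelium genes took 0.0582% of counts in replicate 2 of 6 hpi, against 0.00687% in the next highest library; none of the 8 tested genes of that list was called. Without that library the hypoxia-inducible list still had 9 genes called lower.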

How the results depend on the processing

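The 405 calls of the control comparison became 923 with DESeq2, 203 against 12 hpi alone, 126 within the larger S number set and 89 with the rod and cone share as a covariate, and 118 to 399 when 1 library was left out. Apart from the replicate block, given next, the other settings stayed within 1.5 times. Among control libraries of different times, replicate numbers showed no pairing. Over 9 pairs of equal number the correlation of deviations ran from -0.0853 to 0.0319, and 2 libraries correlated best with their own number. Injured and control libraries of equal time and number were not examined in this way. With the replicate block 266 genes were called. Between 12 and 6 hpi the 0 calls became 35 with DESeq2, 2 without a filter on low counts, 14 on the 6 libraries alone and 0 to 1 with 1 library left out. The 378 injured calls became 1127 with DESeq2 and 132 to 375 with 1 library left out. They became 164 with the S number set as a covariate. Only 1 injured library, replicate 3 of 24 hpi, was in the smaller set. That covariate therefore fitted this library alone, and the fit comes close to leaving it out rather than adjusting for a batch. For the difference between injured and control eyes, DESeq2 called 25 genes, and leaving out 1 library gave 0 to 1. The causes were not tested.

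None of the 64 named genes that were called changed direction. Signs turned only in 13 clock genes that were not called, by log2 fold changes near 0 for most. Against 6 hpi alone the value was 0.0650 for per1a, -0.240 for cry3b, -0.143 for clocka, -0.0266 for dbpa and 0.0335 for nfil3-6. With isl2b as a covariate the value was 0.0503 for per1a and -0.0103 for cry3b. Against 12 hpi alone the value was -0.0607 for cry1b, 0.0505 for cry3a, -0.144 for bhlhe41, 1.23 for npas2 and -0.0570 for arntl2. In the larger S number set the value was -0.0469 for cry1b, 0.176 for cry3a, -0.102 for bhlhe41 and 0.285 for npas2. With the rod and cone share the value was -0.190 for cry1b, 0.0340 for cry3a, -0.0730 for nr1d4a, -0.0875 for bhlhe41 and 0.0882 for rorab. With the replicate block the value was -0.105 for nr1d4b. With upper-quartile factors the value was -0.00408 for bhlhe41. With 3 group means the value was 0.202 for npas2. In the fit of all 18 libraries the value was 0.202 for npas2. With 1 library left out they ranged from -0.397 to 0.000198 for per1a, -0.0779 to 0.165 for cry1b, -0.209 to 0.0612 for cry3a, -0.0505 to 0.180 for cry3b, -2.22 to 0.941 for nr1d4b, -0.0540 to 0.0668 for bhlhe41, -0.0767 to 0.563 for clocka, -0.489 to 0.291 for npas2 and -0.0864 to 0.498 for arntl2. With 3 and 6 libraries of sorted and amplified cells, a common biological coefficient of variation of 0.453 limits what changes can be seen.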

Other observations

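The genes given here lie outside the lists and were chosen from the calls of control eyes after their values were seen, so they describe no gene group. vhl, whose product targets hypoxia-inducible factor for destruction, had 16.2 to 27.11 CPM at 24 hpi, against 50.4 to 81.1 CPM at 6 and 12 hpi (log2 fold change -1.52, SE 0.22, edgeR adjusted p = 0.0029), and hif1an, the asparagine hydroxylase gene of the factor, had 23.7 to 32.5 CPM at 24 hpi, against 58.1 to 80.3 CPM at 6 and 12 hpi. For hif1an, the log2 fold change was -1.27 (SE 0.16, edgeR adjusted p = 0.0015). egln2 and p4ha2, both prolyl hydroxylase genes, had log2 fold changes of -1.28 and -1.79. The adenylate kinase gene ak4 and the lactate transporter gene slc16a3 were at -1.02 and -1.12.

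Among further single genes that were called higher, guca1b, a guanylate cyclase activator gene, had 1697 to 1719 CPM at 24 hpi, against 492 to 861 CPM at 6 and 12 hpi (log2 fold change 1.32, SE 0.16, edgeR adjusted p = 0.001), and guca1a had 459 to 539.9 CPM at 24 hpi, against 134 to 309 CPM at 6 and 12 hpi. For guca1a, the log2 fold change was 1.22 (SE 0.23, edgeR adjusted p = 0.018). The retinoid-binding gene rbp3 had 1728 to 2346 CPM at 24 hpi, against 772 to 1035 CPM at 6 and 12 hpi (log2 fold change 1.17, SE 0.12, edgeR adjusted p = 3.75e-04), and the melanopsin gene opn4.1 had 108 to 147 CPM at 24 hpi, against 33.8 to 77.8 CPM at 6 and 12 hpi. For opn4.1, the log2 fold change was 1.19 (SE 0.24, edgeR adjusted p = 0.022). These sit beside the rod and cone share of counts, which was higher at 24 hpi. Their values with that share as a covariate are not given here, and the causes of their changes were not tested. The forkhead factor gene foxo1a rose (log2 fold change 1.57, SE 0.29, edgeR adjusted p = 0.014), while the insulin receptor substrate gene irs2a (log2 fold change -1.54, SE 0.20, edgeR adjusted p = 0.0015) and the cyclin gene ccng2 (log2 fold change -1.34, SE 0.12, edgeR adjusted p = 1.31e-04) fell. The glycogen-targeting gene ppp1r3cb had 182 to 231 CPM at 24 hpi, against 415 to 706 CPM at 6 and 12 hpi. For ppp1r3cb, the log2 fold change was -1.51 (SE 0.17, edgeR adjusted p = 8.69e-04). The survival gene mcl1b fell with 44.2 to 84.1 CPM at 24 hpi, against 165 to 213 CPM at 6 and 12 hpi (log2 fold change -1.64, SE 0.20, edgeR adjusted p = 0.001), and sik1, a salt-inducible kinase gene, with 36.1 to 56.5 CPM at 24 hpi, against 86.6 to 190.1 CPM at 6 and 12 hpi. For sik1, the log2 fold change was -1.60 (SE 0.27, edgeR adjusted p = 0.0073).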
